A study of Mus musculus with 38 samples.

Results

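NADPH oxidases are enzymes that pass electrons from NADPH to oxygen and so make superoxide or hydrogen peroxide. The genes described here encode 8 of their subunits: Cybb, Cyba, Ncf1, Ncf4, Rac1, Rac2, Nox1 and Nox4. They were taken by gene symbol from the platform annotation, with no use of measured values. They are 8 of 17501 genes that a probe names alone, and are covered by 10 of the 36607 probes on the array, with a pair of probes each for Cybb and Nox1. The study asks what loss of the growth factor receptor c-Met in hepatocytes does during liver carcinogenesis, and it proposes this enzyme family as the source of oxidants after that loss.

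RNA from 20 male mouse livers was measured on 38 arrays with paired dyes, with 5 mice in each of 4 groups. All mice received 10 micrograms of N-nitrosodiethylamine (DEN), a liver carcinogen, per gram of body weight by injection into the abdomen at 14 days of age. Controls carried Alb-Cre +/-, a Cre recombinase under the albumin promoter, which is active in hepatocytes, and are given as strain B6129. Knockouts carried Alb-Cre +/- with Met Fl/Fl and are given as 129SV/C57BL6, so strain label and genotype cannot be told apart. Groups are called 3 and 5 months after the stated time since DEN. The labels also give ages of 12 and 20 weeks, which do not match those times after a dose at 14 days, so the time since DEN is unsettled. Each liver was hybridised against RNA pooled from 5 wild-type male B6129 livers aged 12 weeks, and values are log2 ratios of liver over that pool, 1 per mouse. Because both sides of the ratio are liver, the values cannot check the tissue label or show how much RNA of a gene was present. A bulk liver ratio also cannot tell fewer cells of a type from less RNA per cell. The signal behind each ratio is not known, and the precision of group comparisons is limited by the 5 mice in each group.

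The phagocyte oxidase, found in Kupffer cells, other macrophages and neutrophils, has a membrane core of the catalytic subunit gp91phox (Cybb) and p22phox (Cyba). On stimulation cytosolic subunits, among them p47phox (Ncf1) and p40phox (Ncf4), and a Rac GTPase join that core, and superoxide is made. NOX1 and NOX4 are other catalytic subunits that pair with p22phox, and NOX4 is active without the cytosolic subunits and has been studied in hepatocytes and stellate cells.

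Promoters are shown for the 3 genes on which the results below turn, Cybb with its disagreeing probes, Ncf1 with its levels above the reference, and Nox1 with its spread at 3 months. They are RefSeq windows of 300 bases on GRCm38.p6, 250 before and 50 after an annotated start, and 5 of the 8 genes had such a window. The Cybb and Nox1 windows lie inside the gene spans given below, so these starts are not at the outer end of those spans. Capitals mark a purine box (GAGGAA, or its complement on the other strand) or a CCAAT box.
Cybb, chrX:9469275-9469574, minus strand: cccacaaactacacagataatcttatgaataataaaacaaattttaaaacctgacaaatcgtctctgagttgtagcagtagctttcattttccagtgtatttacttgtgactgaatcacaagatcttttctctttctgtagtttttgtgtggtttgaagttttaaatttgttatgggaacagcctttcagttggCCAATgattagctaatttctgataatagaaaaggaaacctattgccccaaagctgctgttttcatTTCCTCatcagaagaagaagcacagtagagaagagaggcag
Ncf1, chr5:134229576-134229875, minus strand: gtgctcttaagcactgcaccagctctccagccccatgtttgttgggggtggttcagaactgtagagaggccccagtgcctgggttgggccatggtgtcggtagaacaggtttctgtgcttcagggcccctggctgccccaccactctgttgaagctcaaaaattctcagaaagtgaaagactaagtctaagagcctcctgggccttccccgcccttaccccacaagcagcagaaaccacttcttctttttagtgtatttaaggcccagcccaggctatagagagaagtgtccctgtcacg
Nox1, chrX:134111805-134112104, minus strand: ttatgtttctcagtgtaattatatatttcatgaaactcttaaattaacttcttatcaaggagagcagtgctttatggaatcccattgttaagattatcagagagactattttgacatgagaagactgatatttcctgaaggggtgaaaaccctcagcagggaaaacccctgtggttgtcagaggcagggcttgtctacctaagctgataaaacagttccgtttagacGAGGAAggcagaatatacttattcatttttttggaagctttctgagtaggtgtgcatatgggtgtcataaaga
Both strands were searched. The Cybb window held 1 match to each motif and the Nox1 window 1 match to the purine box, while the windows of Cyba, Ncf1 and Nox4 held neither set of letters. Of 32851 promoter windows of this length, 28.3% held the purine box and 37.4% the CCAAT box. No readout here bears on these promoters, and a match is a description of the letters alone.

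Directions below rest on reading the deposited values as Cy5 divided by Cy3. This is probable but stated nowhere, and if Cy3 were the numerator, higher and lower would change places throughout. As deposited, both arrays of a mouse correlated across probes at 0.34 to 0.51 at 3 months and at -0.70 to 0.18 at 5 months, where ratios that follow the dyes would mirror each other. The array of 5-month control 4 that carries its liver RNA in Cy5 correlated at -0.61 to -0.48 with the 3-month liver-in-Cy5 arrays and at 0.70 with the other array of its mouse after turning. Of the knockouts at 5 months, animal 2 has only an array with liver in Cy3 and animal 3 only one with liver in Cy5, so their values rest on a dye effect estimated from the other mice. Database numbers of the arrays fall into 4 runs, with runs A and B at 5 months (B holding only knockouts 3 to 5) and runs C and D at 3 months, each with both genotypes. Age and run cannot be told apart. Met, the targeted gene, had mean log2 ratios of -0.81 ± 0.18 (SD, n = 5) in controls and -0.39 ± 0.38 in knockouts at 3 months, and -0.73 ± 0.30 and -0.78 ± 0.49 at 5 months. Neither genotype difference passed in limma (0.42, adjusted p = 0.639, and -0.05, adjusted p = 0.977). Where its probe lies relative to the deleted part is not given in the sources used here.

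No NADPH oxidase subunit probe differed between knockout and control livers at either age at an adjusted p of 0.05 in limma. At 3 months 0 of 10 member probes passed, against 0.071% of all probes (26 of 36607), and 2 of the 10 had an unadjusted p under 0.05, against 3100 of all probes. At 5 months 0 of 10 passed, against 0.112% (41, of which 39 were higher and 2 lower, while quantile normalisation gave 410 and 277), and 0 of 10 had an unadjusted p under 0.05, against 3810. No member had knockout and control mice that did not overlap, as 1.31% of all probes did at 3 months and 3.93% at 5 months. The median member difference on the log2 scale was -0.12 at 3 months, beside -0.02 over all probes, and 0.05 at 5 months, beside 0.01.

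**Figure D1:**
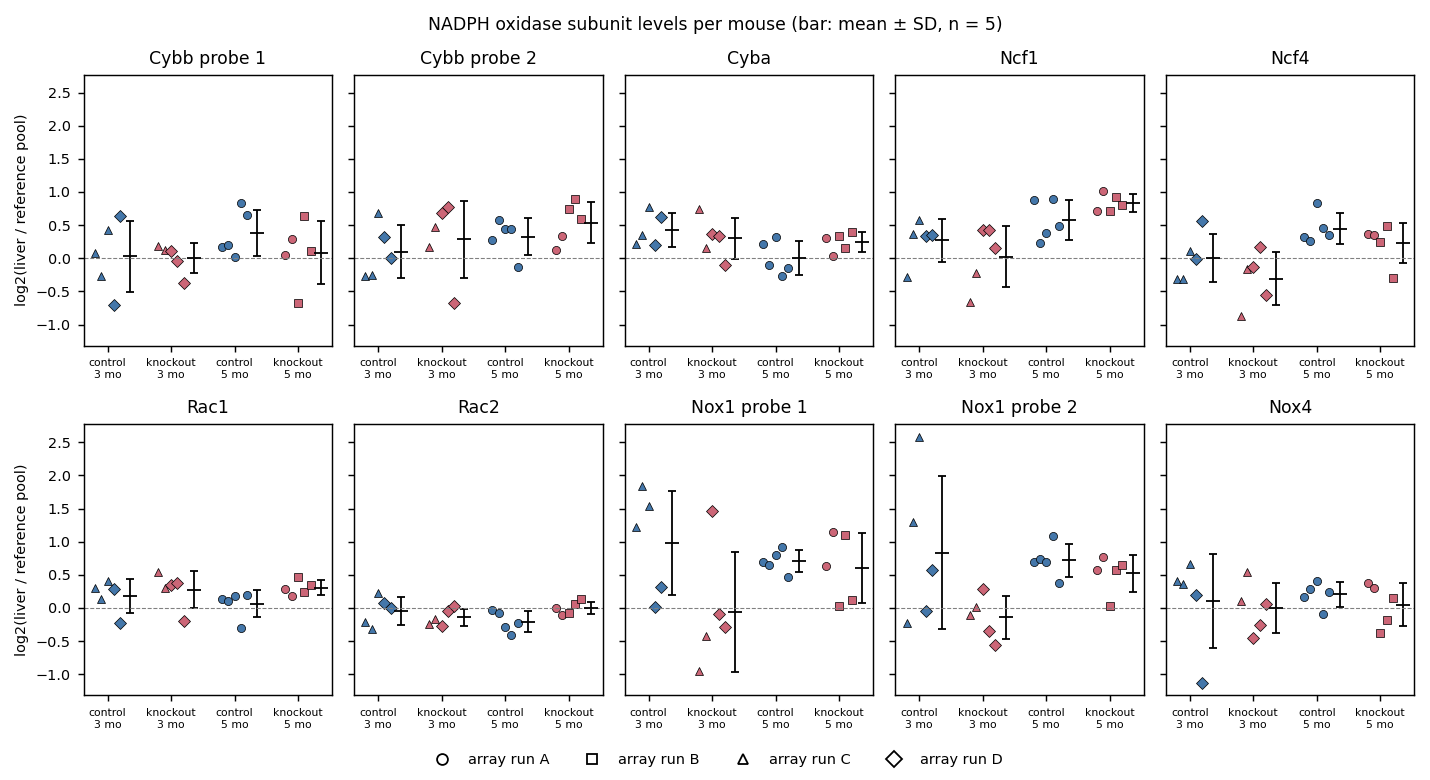
Log2 ratio of liver over the reference pool (vertical axis) for each mouse, by group, for the 10 probes of the 8 genes. Blue points are controls and red points knockouts, the marker shape gives the array run, and bars are the mean ± SD of 5 mice. Control and knockout points overlap in every panel at both ages, and the widest spread is that of the Nox1 probes at 3 months.

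Cybb (chromosome X, 9435252 to 9487766 on GRCm38.p6) encodes the catalytic subunit of the phagocyte oxidase. Its first probe read 0.07, -0.26, 0.43, -0.71 and 0.63 in 3-month controls 1 to 5 and 0.19, 0.12, 0.11, -0.04 and -0.37 in 3-month knockouts 1 to 5. The knockouts all lay inside the range of the controls. The second probe read -0.27, -0.25, 0.68, 0.32 and 0.01 in those controls and 0.17, 0.48, 0.68, 0.77 and -0.68 in those knockouts. Here the knockouts held both the highest and the lowest value. At 5 months the first probe ran from 0.02 to 0.83 in controls (median 0.20) and from -0.67 to 0.64 in knockouts (median 0.11). The second probe ran from -0.14 to 0.58 in controls (median 0.44) and from 0.12 to 0.89 in knockouts (median 0.59). The probes gave knockout minus control differences of opposite sign at both ages, -0.03 ± 0.25 and 0.19 ± 0.25 (SE, n = 5 per group) at 3 months and -0.29 ± 0.25 and 0.21 ± 0.25 at 5 months, with adjusted p from 0.770 to 0.990 in limma. Over the 20 mice they correlated at r = 0.13, and at 0.12 with group means removed, so the readings of this gene by its probes were not alike and no single direction is given for it. With their mean taken as the gene's value the differences were 0.08 and -0.04.

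Cyba (chromosome 8, 122424771 to 122432940) encodes p22phox, the partner shared by the catalytic subunits of the family measured here. It read 0.21, 0.35, 0.77, 0.20 and 0.63 in 3-month controls and 0.75, 0.15, 0.37, 0.33 and -0.11 in 3-month knockouts. The groups spread over much the same range, with knockout 5 the single mouse below 0. At 5 months it read 0.21, -0.11, 0.33, -0.27 and -0.15 in controls and 0.30, 0.03, 0.34, 0.15 and 0.40 in knockouts. All 5 knockouts lay above the control mean, with knockouts 3 and 5 above the highest control and the other 3 inside the control range. The difference was -0.13 ± 0.16 at 3 months (adjusted p = 0.899, limma) and 0.24 ± 0.16 at 5 months (95% interval -0.10 to 0.58, adjusted p = 0.667). Within run A, where 2 of the knockouts lie, the 5-month difference was 0.16.

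Ncf1 (chromosome 5, 134220053 to 134229628) encodes p47phox, the organiser that carries the cytosolic subunits to the membrane. It read -0.29, 0.37, 0.57, 0.34 and 0.35 in 3-month controls and -0.65, -0.23, 0.42, 0.43 and 0.15 in 3-month knockouts. The low knockouts were the pair in run C, beside control 1 of the same run. At 5 months it read 0.88, 0.24, 0.39, 0.90 and 0.48 in controls and 0.72, 1.01, 0.71, 0.92 and 0.80 in knockouts. All 10 mice lay above the reference, and all 5 knockouts above the control mean, while controls 1 and 4 stood as high as the knockouts. The genotype difference was -0.24 ± 0.20 at 3 months (adjusted p = 0.818, limma) and 0.25 ± 0.20 at 5 months (95% interval -0.17 to 0.68, adjusted p = 0.745). At 3 months it was -0.66 within run C and -0.01 within run D.

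Ncf4 (chromosome 15, 78244164 to 78262582) encodes p40phox, the cytosolic subunit that binds phosphoinositides of phagosome membranes. Its 3-month controls read -0.32, -0.31, 0.10, -0.02 and 0.56 and its 3-month knockouts -0.87, -0.17, -0.13, 0.16 and -0.55. At 5 months controls ran from 0.26 to 0.84 (median 0.35) and knockouts from -0.30 to 0.48 (median 0.35). Knockout 5 was the low animal at 5 months while knockout 3 lay just below the lowest control and the other 3 among the controls. The difference was -0.31 ± 0.21 at 3 months and -0.22 ± 0.21 at 5 months (adjusted p = 0.747 and 0.802, limma), and 4 of 5 knockouts lay below the control mean at each age.

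Rac1 and Rac2 encode the small GTPases that complete the active oxidase, Rac1 in most cell types and Rac2 mainly in blood cells. Rac1 (chromosome 5, 143505481 to 143528031) read 0.14, 0.11, 0.18, -0.30 and 0.20 in 5-month controls and 0.29, 0.18, 0.47, 0.23 and 0.35 in 5-month knockouts. Knockout 2 was the single knockout inside the control range. Rac2 (chromosome 15, 78559169 to 78572783) read -0.03, -0.08, -0.28, -0.41 and -0.23 in those controls and -0.002, -0.11, -0.08, 0.06 and 0.13 in those knockouts. Controls 1 and 2 overlapped the low knockouts. The 5-month differences were 0.24 ± 0.15 for Rac1 (95% interval -0.07 to 0.55, adjusted p = 0.622, limma) and 0.21 ± 0.12 for Rac2 (-0.04 to 0.45, adjusted p = 0.577), and at 3 months they were 0.09 ± 0.15 and -0.09 ± 0.12. Within run A the 5-month differences were 0.17 and 0.15. At 3 months Rac1 ran from -0.23 to 0.40 in controls and from -0.20 to 0.54 in knockouts, and Rac2 from -0.32 to 0.22 and from -0.27 to 0.03. Rac2 had the smallest spread of the members, with a within-group SD of 0.15 at the 2.58th percentile of all probes.

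Cyba, Ncf1, Rac1 and Rac2 were thus the 4 of 10 member probes with all 5 knockouts above the control mean at 5 months. Over all probes 25.3% had all 5 knockouts on a single side of that mean at 5 months, 5744 of 36607 above it and 3529 below. At 3 months the share on a single side was 16.9%, and 1 of 10 members did so. Control 4 at 5 months was the lowest control for Cyba (-0.27), Rac1 (-0.30) and Rac2 (-0.41) and the highest for Ncf1 (0.90). Without it the 5-month differences were 0.17, 0.15 and 0.15, and 0.33 for Ncf1. The probes with an unadjusted p under 0.05 in limma then numbered 2475, against 3810 with all mice. Other genes also lay higher in the same knockouts. Of the 21 measured Kupffer cell and macrophage markers 15 were higher in knockouts at 5 months (median difference 0.25, 9 with an unadjusted p under 0.05), and their mean log2 level ran from -0.29 to 0.18 over the controls and from 0.04 to 0.43 over the knockouts. Adgre1, a surface antigen of macrophages, gave 0.88 ± 0.25 and Ctss, a lysosomal protease, gave 0.79, the highest of the list, while Aif1 (-0.46) and Fcgr1 (-0.13) gave the lowest of the 6 that were lower. Of the 14 hepatocyte markers 13 were higher (median 0.22, 8 with an unadjusted p under 0.05), with mean levels of -0.46 to 0.25 in controls and 0.13 to 0.37 in knockouts. Over all probes 3810 of 36607 (10.4%) had an unadjusted p under 0.05 at 5 months. Limma called 0 genes of either list. The part of these cells, of control 4 or of the array runs in the member values was not tested. A ratio has no zero, so no marker can be given as absent.

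Nox1 (chromosome X, 134086421 to 134137711) encodes the catalytic subunit best known from colon epithelium. Its first probe read 1.22, 1.84, 1.54, 0.01 and 0.32 in 3-month controls and -0.95, -0.42, 1.46, -0.09 and -0.29 in 3-month knockouts. Controls 1 to 3, all in run C, stood high, and knockout 3 of run D stood with them. Its second probe read -0.23, 1.30, 2.59, -0.05 and 0.57 in those controls and -0.11, 0.02, 0.29, -0.34 and -0.55 in those knockouts. Here controls 2, 3 and 5 lay above every knockout, and controls 1 and 4 lay among the knockouts. The differences were -1.04 ± 0.39 (95% interval -1.85 to -0.23) and -0.97 ± 0.37 (-1.74 to -0.21), the largest of the members, with unadjusted p = 0.0145 and 0.0156 and adjusted p = 0.422 and 0.436 in limma. These intervals and p-values use a spread per probe shared by all 4 groups, and the Nox1 spread was wider at 3 months. The SDs of the first probe were 0.79 in controls and 0.91 in knockouts at 3 months, against 0.17 and 0.53 at 5 months. Those of the second were 1.15 and 0.33, against 0.25 and 0.28. Knockouts lay below the control mean in 4 of 5 mice by the first probe and in 5 of 5 by the second. The first probe gave -2.21 within run C and 0.20 within run D, and the second -1.26 and -0.46.

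At 5 months the Nox1 groups lay closer. The first probe ran from 0.47 to 0.92 in controls and from 0.03 to 1.15 in knockouts, and the second from 0.38 to 1.09 and from 0.04 to 0.77. The differences were -0.10 ± 0.39 and -0.20 ± 0.37 (adjusted p = 0.974 and 0.929, limma). As deposited, before turning, the first probe was below 0 on 34 of 38 arrays and the second on 31. The 4 and 7 arrays above 0 were all 5-month arrays with the liver in Cy5. The dye effect of the first probe was -2.56 at 3 months and -0.80 at 5 months, in size at the 96.5th and 97.2nd percentile of all probes. It cancels in a mouse with both orientations, and its part in the wide spread of this gene (within-group SD of 0.66 and 0.63, at the 89.2nd and 87.5th percentile) was not tested.

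Nox4 (chromosome 7, 87244430 to 87398710) encodes the catalytic subunit that makes mainly hydrogen peroxide and is active as soon as it is present with p22phox. It read 0.41, 0.37, 0.66, 0.19 and -1.13 in 3-month controls and 0.11, 0.54, -0.45, -0.26 and 0.06 in 3-month knockouts. Control 5 was far below all others, on its array with liver in Cy5 (-1.40) and on its array with liver in Cy3 after turning (-0.87). At 5 months Nox4 ran from -0.09 to 0.40 in controls (median 0.24) and from -0.38 to 0.37 in knockouts (median 0.15). The differences were -0.10 ± 0.27 and -0.15 ± 0.27 (adjusted p = 0.964 and 0.922, limma). At 3 months it was -0.41 without control 5.

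**Figure D2:**
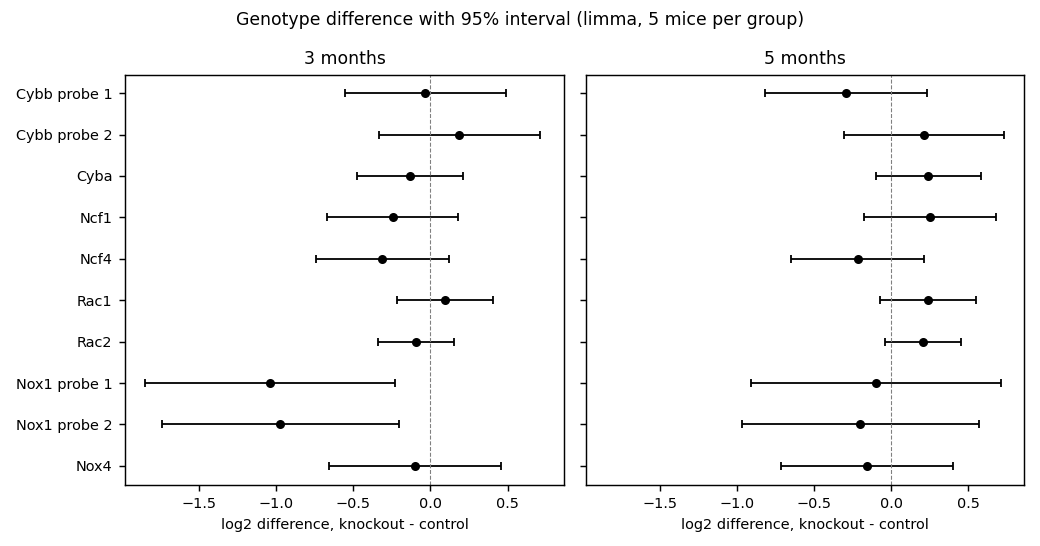
Knockout minus control difference on the log2 scale (horizontal axis) for each probe at 3 and at 5 months, with 95% intervals from limma, 5 mice per group. Each interval uses a spread per probe shared by all 4 groups and both ages. At 3 months both Nox1 probes lie near -1 with intervals that exclude 0 before adjustment, and at 5 months every interval includes 0.

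The intervals show what size of difference these data leave possible. For Rac2, the most precise member, the 5-month interval reached 0.45 on the log2 scale, and for Nox1 by its first probe it ran from -0.91 to 0.71. The change of the genotype difference from 3 to 5 months was tested as an interaction and ranged from -0.26 for the first Cybb probe to 0.94 for the first Nox1 probe. For Ncf1 it was 0.50 ± 0.29 (adjusted p = 0.691, limma) and for Rac2 0.30 ± 0.17 (adjusted p = 0.681). Limma called 0% of all probes for this interaction (0 of 36607), with 2949 probes and 0 members at an unadjusted p under 0.05.

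Against the normal liver reference, Ncf1 had the highest mean of the 10 member probes in 5-month knockouts, while in 5-month controls both Nox1 probes (0.71 and 0.72) had higher means. The Ncf1 level was 0.58 ± 0.30 (SD, n = 5) in controls and 0.83 ± 0.13 in knockouts (adjusted p = 0.00666 and 0.000554 against 0, limma), with both dye orientations above 0 in both groups. The reference is a single pool, so its own spread is left out of these tests, and the median over all probes was itself -0.06, -0.12, 0.09 and 0.11 in 3-month controls, 3-month knockouts, 5-month controls and 5-month knockouts. In 5-month controls 3 of 10 member probes differed from the reference, Ncf1, Ncf4 (0.45 ± 0.23, adjusted p = 0.0277) and the second Nox1 probe (0.72 ± 0.25, adjusted p = 0.0427), beside 30.8% of all probes. In 5-month knockouts it was 3 of 10 beside 30.8%, namely Ncf1, the second Cybb probe (0.54 ± 0.31) and Rac1 (0.30 ± 0.11). These shares are near the background. The Ncf4 call ended without control 1, 3, 4 or 5, the Nox1 call without any single 5-month control or without knockout 1, 4 or 5, the Cybb call without knockout 3, 4 or 5 and the Rac1 call without any single 5-month knockout. The Ncf1 calls held with any single mouse left out. With arrays centred on their medians the Nox1 and Rac1 calls ended as well (0.65 and 0.24). On liver-in-Cy5 arrays alone Ncf1 was 0.37 in controls and 0.58 in knockouts and did not pass (adjusted p = 0.358 and 0.172). Turning the sign of control 4's Cy5 reading, 1.02 for Ncf1, cut the probes called in 5-month controls from 11286 to 2022. Among all member results 3 then weakened and 2 strengthened. The Ncf1 call in controls is therefore not taken to hold under that change.

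At 3 months the levels against the reference were less settled. In controls 3 of 10 probes differed from it, beside 30.4% of all probes, Cyba (0.43 ± 0.25, adjusted p = 0.00845, limma) and both Nox1 probes (0.98 ± 0.79 and 0.84 ± 1.15). The Nox1 calls ended without control 2 (0.77 and 0.72), and that of the second probe also without control 3 (0.40). In knockouts 0 of 10 did, beside 28.7%. There 3 of 10 had an unadjusted p under 0.05 in limma, beside 14889 of all 36607 probes. The mean of the liver-in-Cy5 arrays and that of the turned liver-in-Cy3 arrays lay on the same side of 0 for 2 of 10 probes in controls and 3 of 10 in knockouts, against 8 and 6 of 10 at 5 months. The share over all probes was not computed, so these counts are not read as a trait of the members. Over all probes both arrays of a 3-month mouse correlated at 0.34 to 0.51 as deposited. Ncf1 in 3-month controls read -0.78 with the liver in Cy5 and 1.32 with it in Cy3, and the first Nox1 probe read -1.87 and 3.84. Cyba read 0.46 and 0.40 and was the called member whose orientations had the same direction at 3 months.

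**Figure D3:**
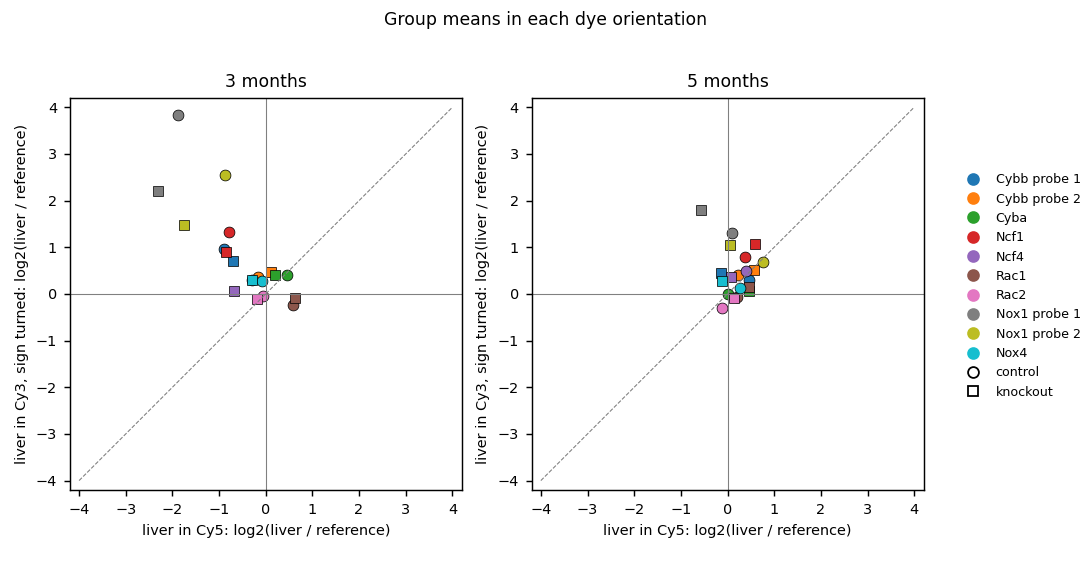
Mean log2 ratio of liver over reference on arrays with liver in Cy5 (horizontal axis) and, sign turned, with liver in Cy3 (vertical axis), for controls (circles) and knockouts (squares) of each probe (colours). On the dashed line both orientations read alike. At 3 months most points lie in the upper left, with Nox1 farthest out, and at 5 months most lie nearer the line.

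Setting the 4 groups of each probe in order of their mean level gave 30 neighbouring pairs, and in 1 of them the gap was above the larger of the SDs. It was the second Nox1 probe, 0.52 in 5-month knockouts and -0.14 in 3-month knockouts. Ncf1 ran from 5-month knockouts through 5-month controls (0.58) and 3-month controls (0.27) to 3-month knockouts (0.02), and Ncf4 from 5-month controls (0.45) to 3-month knockouts (-0.31). In Cyba the highest mean was that of 3-month controls (0.43) and the lowest that of 5-month controls (0.003). Each age was hybridised in runs of its own, so these orders across age are a description.

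The members did not vary as a block. With group means removed, r over the 20 mice ranged from -0.43 to 0.51 among the 45 pairs of member probes, with a median of 0.12. The highest was that between the Nox1 probes and the lowest that between Ncf4 and Nox4. These values share arrays and the reference pool. Chosen as the named genes with the highest r over the 20 mice, those most like Ncf1 were Igkv13-87 (r = 0.92, 0.83 with group means removed), Ago3 (0.89, 0.82) and Kdm7a (0.88, 0.83). Rac1 was most like Dsg1b (0.92, 0.92), Slc35b4 (0.89, 0.89) and Agap3 (0.88, 0.86), and Cyba most like Rpl10 (0.86, 0.80), 2210409E12Rik (0.84, 0.77) and Psmb2 (0.84, 0.79). Ncf4 was most like Ceacam10 (0.87, 0.80), Olfr1130 (0.86, 0.85) and Olfr494 (0.85, 0.74), and Rac2 most like Olfr44 (0.84, 0.81), Spred2 (0.80, 0.85) and Tbx1 (0.78, 0.75). For Nox4 they were Polr2a (0.85, 0.87), Stradb (0.83, 0.87) and Chp1 (0.82, 0.81). The Cybb probes had no gene in common among theirs, Nupr1, Chek1 and Bpifb3 (0.79 each) for the first and Gbp2b (0.81), Ppp1r9b (0.80) and Tmem145 (0.77) for the second. Nor had the Nox1 probes, with Olfr1109 (0.85), Olfr1219 (0.84) and Impg1 (0.83) for the first and Cryaa (0.90), B4galnt2 (0.88) and Stk26 (0.85) for the second. The highest of the correlations with all named genes is high by selection.

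The rest of the oxidase pathway gave 0 calls in limma at either age. Of 14 other measured NADPH oxidase genes 6 were higher and 8 lower in knockouts at 3 months (median -0.05, 2 with an unadjusted p under 0.05), and 3 were higher and 11 lower at 5 months (median -0.08, 3 such). Duox2, a hydrogen peroxide-making oxidase of thyroid and epithelia, gave -0.76 at 5 months, and Rap1a, a small GTPase that copurifies with cytochrome b, gave 0.40. Of 23 regulators of Rac activity 13 were higher at 3 months and 7 at 5 months, with Chn1, a Rac GTPase-activating protein, lowest at both (-1.43 and -0.35). Of 19 activating kinases and upstream signalling genes 13 were higher at 3 months and 6 at 5 months, with Prkce at -0.53 and Prkca at 0.45 at 5 months. Unadjusted p was under 0.05 for 3 and 2 of the regulators and for 1 of the signalling genes at each age. The shares over all probes were 8.47% at 3 months and 10.4% at 5 months.

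Genes that remove superoxide and peroxide lay mostly on opposite sides at the different ages. Of 18 measured, 5 were higher in knockouts at 3 months (median -0.12, 3 with an unadjusted p under 0.05) and 16 at 5 months (median 0.22, 4 such). Sod3, the extracellular superoxide dismutase, gave 0.89 at 3 months (adjusted p = 0.462, limma), and the peroxiredoxin Prdx4 gave 0.52 at 5 months (adjusted p = 0.286). Of 17 other oxidant-producing enzymes 8 were higher at 3 months and 12 at 5 months (median 0.16), with Sqor at 0.45 and Nos3, the endothelial nitric oxide synthase, at -0.49, and 1 and 2 had an unadjusted p under 0.05. Over all probes 8.47% had an unadjusted p under 0.05 at 3 months and 10.4% at 5 months. At 5 months the hepatocyte (13 of 14), endothelial (12 of 16) and Kupffer cell (15 of 21) lists were also mostly higher in knockouts. Knockouts 3 to 5 of that age lie in run B, which has no controls, and the part of the run was not tested. Limma called 0 genes of these lists, and the change between ages of a list was not tested.

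Among the other marker lists, neutrophil genes, whose cells carry the phagocyte oxidase, were higher for 6 of 14 at 3 months and 3 of 14 at 5 months (medians -0.003 and -0.11). Their mean level ran from -0.08 to 0.19 over the 5-month controls and from -0.30 to 0.15 over the knockouts. Lymphocyte and pan-leukocyte genes were higher for 10 of 15 at each age (medians 0.02 and 0.07). Endothelial genes were higher for 8 of 16 and 12 of 16 (medians -0.005 and 0.28), stellate cell genes for 13 of 17 and 11 of 17 (0.10 and 0.04) and cholangiocyte genes for 3 of 8 and 5 of 8 (-0.03 and 0.18). At 3 months the Kupffer cell list had 5 of 21 higher (median -0.06) and the hepatocyte list 7 of 14. Limma called 0 genes of these lists at either age. The genes with an unadjusted p under 0.05 numbered from 0 to 2 per list at 3 months and from 0 to 9 at 5 months. At 5 months they were 9 of 21 Kupffer cell, 8 of 14 hepatocyte, 6 of 16 endothelial and 6 of 17 stellate cell genes. In the neutrophil, lymphocyte and cholangiocyte lists they were 1 of 14, 1 of 15 and 0 of 8. Beside these counts stand 8.47% of all probes at 3 months and 10.4% at 5 months.

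**Figure D4:**
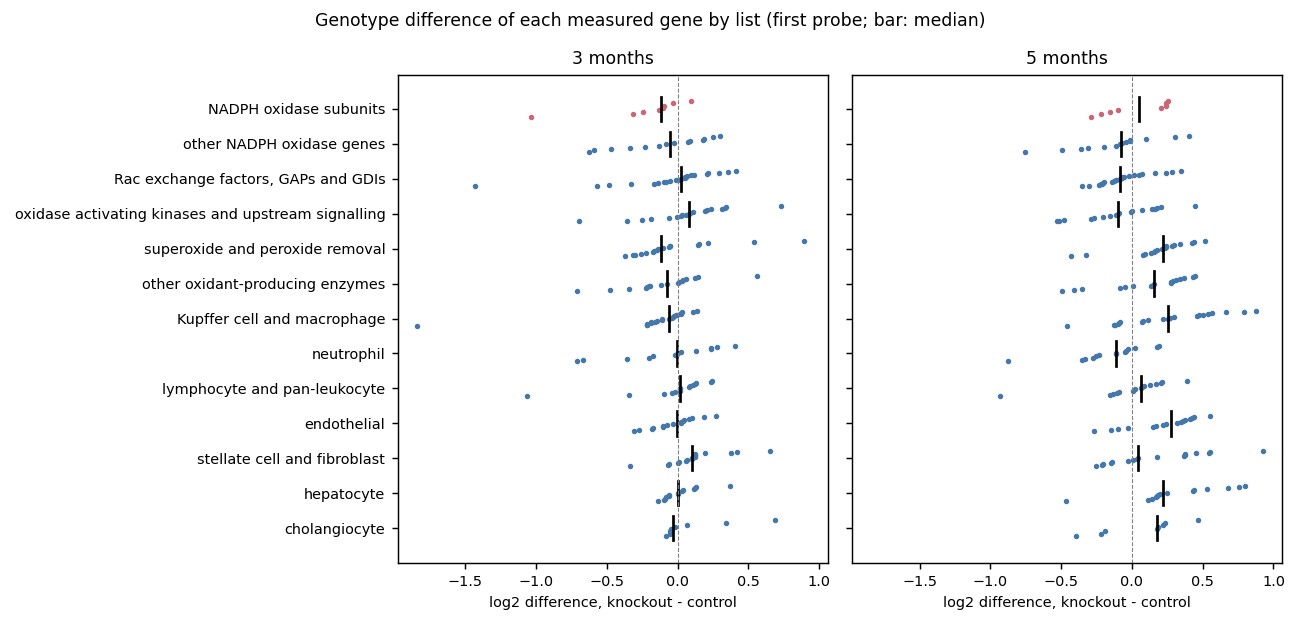
Knockout minus control difference on the log2 scale (horizontal axis) of each measured gene by list, at 3 and 5 months, taking the first probe of a gene. Red points are the 8 subunit genes, blue points the other lists and black bars the medians. At 5 months the medians of the peroxide removal, Kupffer cell, endothelial and hepatocyte lists lie between 0.22 and 0.28, and that of the subunits at 0.05.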

How the data were processed

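Total RNA from snap-frozen liver (caesium chloride gradient, per the labels' protocols) was compared with the reference pool on arrays with both dye orientations for 18 of 20 mice. Per the series' design text, the authors excluded invalid features, scanned with a GenePix instrument and normalised arrays to the 50th percentile in mAdb. The deposited values are log2 ratios, with base 2 inferred from how far apart the commonest values lie. How background was handled, and which dye is the numerator, is not given in the sources used here.

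Arrays with liver in Cy3 were sign-turned, each was corrected for a dye effect per probe, and the mean over the arrays of a mouse gave its value. The dye effect was estimated within each age, a choice made after the member values by array had been seen and before genotype contrasts were computed, because it differed between ages (median absolute difference 0.287). A single effect over both ages is an alternative. limma 3.58.1 in R 4.3.3 (lmFit, eBayes) was fitted to 36607 probes over 20 mice, with Benjamini-Hochberg adjustment and a threshold of 0.05. The steps were tried on simulated data in which both arrays of a mouse shared the same liver value, with no noise per array. That trial cannot show how they perform with the array noise of these data. The labels do not say that the mice of a group are litter-independent. The p-values treat them as independent and set each difference against a spread per probe pooled over all 4 groups. Of the probes, 26926 had 1 symbol, 203 several and 9478 none, from a platform annotation that can be old, and 26774 matched RefSeq by gene ID.

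The members, gene lists and markers were chosen with earlier results of these data known. All member probes are named. From each list the named genes come from those with the 2 highest and 2 lowest differences at each age by first probe, and for each member probe the 3 named genes with the highest correlation are given. Alternatives were a replicate block, array run, each age alone, the methods' t-test, centring, quantile normalisation, single orientations, no dye correction, no turning, the stated array of control 4, each mouse left out and the mean of a gene's probes.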

Additional observations from a re-analysis of the deposited data

Results flagged for a closer look

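Of 40 sets of 5 mice (10 probes in 4 groups), 4 held a mouse whose gap to its nearest neighbour was a larger share of the range than Dixon's 95% critical value of 0.71 for 5 values. Chance flags about 1 in 20 groups. Ncf1 in 3-month control 1 was -0.29, against 0.34 to 0.57 in the other 4 controls. Rac1 in 5-month control 4 was -0.30, against 0.11 to 0.20. The second Nox1 probe in 5-month knockout 3, which has a single array, was 0.036, against 0.57 to 0.77. Nox4 in 3-month control 5 was -1.13, against 0.19 to 0.66, and was low on both of its arrays.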

How the results depend on the processing

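Under all alternatives, leaving out each mouse included, 698 genotype differences of the members were computed. Of these 0 had an adjusted p under 0.05 (lowest 0.0853, limma or the methods' t-test) and 660 kept their direction. Many of the 660 could not have changed direction. Leaving out a mouse of the other age, fitting an age alone and the methods' t-test keep the estimate of the main fit. The count therefore overstates how far directions held. With no array turned, the liver ratio as read here cancels in a mouse with both orientations and the dye effect remains. Values of that alternative therefore do not test the directions. Levels against the reference turned sign most with a single dye orientation or with no array turned. The signal behind each ratio is unknown, so dim probes could not be filtered. The cause of each change was not tested.

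The deviations of same-numbered control and knockout mice correlated at -0.28 to 0.11, and 2 of 10 pairs correlated best with their own number, so the numbers were not taken to pair the mice. With the replicate number as a block calls numbered 4 for the 3-month genotype difference, 1 for the 5-month genotype difference and 1 for its change with age. With array run as a covariate calls numbered 51 for the 3-month genotype difference and 3 for the 5-month genotype difference. Cybb probe 1 (0.0036) and Nox4 (0.048) turned sign for the 3-month genotype difference. Cybb probe 2 (-0.093), Nox1 probe 1 (0.19) and Nox4 (0.13) turned sign for the 5-month genotype difference. Cybb probe 2 (-0.27) and Nox4 (0.083) turned sign for its change with age. Within array run C calls numbered 0 for the 3-month genotype difference (2312 at an unadjusted p under 0.05). Cybb probe 1 (0.073) and Cyba (0.0061) turned sign for the 3-month genotype difference. Within array run D calls numbered 0 for the 3-month genotype difference (1939 at an unadjusted p under 0.05). Nox1 probe 1 (0.20) and Nox4 (0.25) turned sign for the 3-month genotype difference. In the 3-month mice alone calls numbered 0 for the 3-month genotype difference (2198 at an unadjusted p under 0.05).

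With quantile normalisation calls numbered 0 for the 3-month genotype difference (1216 at an unadjusted p under 0.05), 687 for the 5-month genotype difference, 6689 for 3-month controls against the reference, 6099 for 3-month knockouts against the reference and 16948 for 5-month controls against the reference. Cybb probe 1 (0.088) turned sign for the 3-month genotype difference. Ncf4 (-0.17), Nox1 probe 1 (-0.041) and Nox1 probe 2 (-0.028) turned sign for its change with age. Ncf4 (-0.023) turned sign for 3-month controls against the reference. Cybb probe 1 (0.11), Nox1 probe 1 (0.14), Nox1 probe 2 (0.066) and Nox4 (0.068) turned sign for 3-month knockouts against the reference. Cyba (-0.062) turned sign for 5-month controls against the reference. Cybb probe 1 (-0.028) and Nox4 (-0.045) turned sign for 5-month knockouts against the reference. With liver in Cy5 only calls numbered 2 for the 3-month genotype difference, 2 for the 5-month genotype difference, 24159 for 3-month controls against the reference, 24237 for 3-month knockouts against the reference, 2334 for 5-month controls against the reference and 2487 for 5-month knockouts against the reference. Cybb probe 1 (0.20) turned sign for the 3-month genotype difference. Nox1 probe 1 (-0.23) turned sign for its change with age. Cybb probe 1 (-0.90), Cybb probe 2 (-0.17), Ncf1 (-0.78), Ncf4 (-0.29), Nox1 probe 1 (-1.87), Nox1 probe 2 (-0.87) and Nox4 (-0.072) turned sign for 3-month controls against the reference. Ncf1 (-0.85) turned sign for 3-month knockouts against the reference. Cybb probe 1 (-0.15), Rac2 (0.14), Nox1 probe 1 (-0.57) and Nox4 (-0.13) turned sign for 5-month knockouts against the reference. With liver in Cy3 only calls numbered 2 for the 3-month genotype difference, 0 for the 5-month genotype difference (3032 at an unadjusted p under 0.05), 21889 for 3-month controls against the reference and 19137 for 3-month knockouts against the reference. Nox4 (0.020) turned sign for the 3-month genotype difference. Cybb probe 1 (0.16), Nox1 probe 1 (0.48), Nox1 probe 2 (0.37) and Nox4 (0.14) turned sign for the 5-month genotype difference. Cybb probe 1 (0.42) and Nox4 (0.12) turned sign for its change with age. Rac1 (-0.23) turned sign for 3-month controls against the reference. Cybb probe 1 (0.70), Ncf4 (0.054), Rac1 (-0.082), Nox1 probe 1 (2.21), Nox1 probe 2 (1.47) and Nox4 (0.29) turned sign for 3-month knockouts against the reference. Cyba (-0.0044) and Rac1 (-0.073) turned sign for 5-month controls against the reference. With no dye effect subtracted calls numbered 5 for the 3-month genotype difference. With no array turned calls numbered 0 for the 3-month genotype difference (1554 at an unadjusted p under 0.05), 0 for the 5-month genotype difference (2410 at an unadjusted p under 0.05), 22290 for 3-month controls against the reference, 21835 for 3-month knockouts against the reference, 38 for 5-month controls against the reference and 6525 for 5-month knockouts against the reference. Cybb probe 1 (0.23), Ncf1 (0.18), Rac1 (-0.055), Nox1 probe 1 (0.59) and Nox1 probe 2 (0.095) turned sign for the 3-month genotype difference. Ncf1 (-0.056) turned sign for the 5-month genotype difference. Ncf1 (-0.23), Ncf4 (-0.024), Nox1 probe 1 (-1.21) and Nox1 probe 2 (-0.64) turned sign for its change with age. Cybb probe 1 (-0.94), Cybb probe 2 (-0.27), Ncf1 (-1.05), Ncf4 (-0.29), Nox1 probe 1 (-2.86), Nox1 probe 2 (-1.71) and Nox4 (-0.17) turned sign for 3-month controls against the reference. Cybb probe 2 (-0.18), Cyba (-0.099) and Ncf1 (-0.87) turned sign for 3-month knockouts against the reference. Cybb probe 2 (-0.092), Ncf1 (-0.21), Ncf4 (-0.056), Rac2 (0.087) and Nox1 probe 1 (-0.60) turned sign for 5-month controls against the reference. Cybb probe 1 (-0.34), Ncf1 (-0.27), Ncf4 (-0.15), Rac2 (0.12), Nox1 probe 1 (-1.22), Nox1 probe 2 (-0.50) and Nox4 (-0.23) turned sign for 5-month knockouts against the reference.

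With the Cy5 array of 5-month control 4's liver turned calls numbered 1 for the 3-month genotype difference, 9 for the 5-month genotype difference and 2022 for 5-month controls against the reference. Nox1 probe 1 (0.076) and Nox1 probe 2 (0.14) turned sign for the 5-month genotype difference. With a dye effect over both ages together, chosen after seeing the data, calls numbered 13 for the 3-month genotype difference. Within array run A calls numbered 1 for the 5-month genotype difference. Cybb probe 2 (-0.093), Nox1 probe 1 (0.19) and Nox4 (0.13) turned sign for the 5-month genotype difference. In the 5-month mice alone calls numbered 5 for the 5-month genotype difference. Without the Cy5 array of 5-month control 4's liver Nox1 probe 1 (0.074) turned sign for the 5-month genotype difference.

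With arrays centred on their medians Rac2 (0.030) turned sign for 3-month controls against the reference. Cybb probe 1 (0.10), Nox1 probe 1 (0.049) and Nox4 (0.10) turned sign for 3-month knockouts against the reference. Cyba (-0.065) and Rac1 (-0.0029) turned sign for 5-month controls against the reference. Nox4 (-0.014) turned sign for 5-month knockouts against the reference. With the mean of a gene's probes Cybb probe 1 (0.076) turned sign for the 3-month genotype difference. Cybb probe 2 (-0.038) turned sign for the 5-month genotype difference. Cybb probe 2 (-0.11) turned sign for its change with age. Cybb probe 1 (0.14) turned sign for 3-month knockouts against the reference. With the methods' t-test at its unadjusted threshold calls numbered 63 for the 3-month genotype difference and 211 for the 5-month genotype difference. With the methods' t-test after adjustment calls numbered 0 for the 3-month genotype difference (2164 at an unadjusted p under 0.05) and 1 for the 5-month genotype difference.

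Leaving out each mouse in turn, calls ranged from 0 to 76 for the 3-month genotype difference, from 10 to 99 for the 5-month genotype difference, from 0 to 1 for its change with age, from 5721 to 12035 for 5-month controls against the reference and from 7394 to 12021 for 5-month knockouts against the reference. The 3-month count moved by over 1.5 times in 16 of the 20 cases, lowest without knockout 1 (0, with 3148 at an unadjusted p under 0.05) and highest without knockout 3. The 5-month count did so without control (5 months) 1 (19), control (5 months) 3 (99), control (5 months) 4 (11), control (5 months) 5 (15), knockout (5 months) 3 (23), knockout (5 months) 4 (10) and knockout (5 months) 5 (11). Cybb probe 1 (-0.22 to 0.12), Rac1 (-0.0078 to 0.21) and Nox4 (-0.41 to 0.039) crossed 0 for the 3-month genotype difference. Nox1 probe 1 (-0.24 to 0.046) crossed 0 for the 5-month genotype difference. Cybb probe 2 (-0.21 to 0.15), Ncf4 (-0.043 to 0.23) and Nox4 (-0.19 to 0.26) crossed 0 for its change with age. Cybb probe 1 (-0.12 to 0.22), Cybb probe 2 (-0.046 to 0.19), Ncf4 (-0.13 to 0.086), Rac2 (-0.11 to 0.021) and Nox4 (-0.040 to 0.41) crossed 0 for 3-month controls against the reference. Cybb probe 1 (-0.047 to 0.092), Ncf1 (-0.077 to 0.19), Nox1 probe 1 (-0.43 to 0.17) and Nox4 (-0.14 to 0.11) crossed 0 for 3-month knockouts against the reference. Cyba (-0.078 to 0.071) crossed 0 for 5-month controls against the reference. Cybb probe 1 (-0.054 to 0.27), Rac2 (-0.033 to 0.026) and Nox4 (-0.029 to 0.16) crossed 0 for 5-month knockouts against the reference.

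Of the probes called, 39 higher and 2 lower became 410 and 277 for the 5-month genotype difference with quantile normalisation. Likewise, 4619 higher and 6501 lower became 6128 and 4848 for 3-month controls against the reference with arrays centred on their medians. Again, 4619 higher and 6501 lower became 3533 and 3156 for 3-month controls against the reference with quantile normalisation. Likewise, 3922 higher and 6584 lower became 5626 and 3981 for 3-month knockouts against the reference with arrays centred on their medians. Again, 3922 higher and 6584 lower became 3648 and 2451 for 3-month knockouts against the reference with quantile normalisation. Likewise, 5898 higher and 5388 lower became 4233 and 6888 for 5-month controls against the reference with arrays centred on their medians. Again, 6714 higher and 4567 lower became 4658 and 5952 for 5-month knockouts against the reference with arrays centred on their medians. Likewise, 6714 higher and 4567 lower became 7128 and 7801 for 5-month knockouts against the reference with quantile normalisation.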
